A study of Danio rerio with 1536 samples.

Results

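Hox genes encode homeodomain transcription factors. The genes lie in clusters on the chromosomes, and their order within a cluster follows the order in which they are switched on along the body, from the lowest-numbered paralogue group at the head end to the highest at the tail end. In the spinal cord, Hox factors bind DNA together with cofactors of the Pbx and Meis families. They help to set which neuron types form at which level, and in mice successive groups distinguish motoneurons (MNs) of the brachial, thoracic and lumbar cord. Zebrafish kept extra copies of several Hox genes, named a and b, after a duplication of their genome.

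Every gene of the deposited count tables whose symbol begins with hox, a cluster letter from a to d and a number was taken, which gave 48 of 32519 genes. Clusters A, B, C and D held 11, 15, 15 and 7 of them. Paralogue groups 1 to 13 held 4, 2, 4, 3, 4, 4, 1, 3, 5, 4, 5, 3 and 6 genes. By name, 15 genes were matched directly, 23 by elimination within their family, and for 10 it is not known which of a pair of duplicates a row was, so that these are written with a shared symbol and their Ensembl identifier, such as HOXB5 (ENSDARG00000054030). In RefSeq the gene models of hoxa3a, hoxb3a, hoxc3a, hoxd3a and hoxb1b overlap those of other Hox genes of their clusters. The overlapped genes include hoxa5a, hoxb4a, hoxb6a, hoxb6b, hoxc4a, hoxc5a, hoxc8a, hoxc9a and hoxd4a, and copies of hoxb5 and hoxc6. Whether reads were counted by strand is not given in the sources used here, so the values of all these genes are uncertain.

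The study sequenced single GFP-positive cells sorted from whole spinal cords of 7-week-old zebrafish of either sex by the Smart-seq2 protocol. Cells of the Tg(isl1a:GFP) line, in which GFP marks MNs and some other neurons, filled 2 plates of 384 wells, and cells of the Tg(chx10:GFP) line, in which GFP marks V2a interneurons (INs), which excite MNs, filled another 2. The cords of 6 to 10 fish were pooled for a plate, and the pool is the replicate. Apart from the reporter line, no label separates the plates by treatment or age, and none gives the position of a cell along the cord.

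A well passed with 2000 to 9000 genes detected and at most 30% of counts on spike-ins, which left 259 and 363 isl1a:GFP wells and 300 and 325 chx10:GFP wells. On isl1a:GFP plate 1, 114 wells failed the limit on spike-ins. The median number of counts per passing well was 403751 and 436783 on isl1a:GFP plates and 324159 and 367903 on chx10:GFP plates. Clustering without Hox genes gave MN-like wells (109 and 154 on plates 1 and 2), CSF-contacting-like wells (75 and 95), serotonergic-like wells (31 and 29), V2a-like wells (285 and 244) and immature V2a-like wells (15 and 81). A pair of isl1a:GFP clusters passed no naming rule and are called by a leading gene, the nhlh2 cluster (18 and 60 wells) and the otp cluster (26 and 25 wells). The labels of the lines fitted their markers, since isl1a was higher in isl1a:GFP than in chx10:GFP sums by 8.75 ± 1.48 on the log2 scale (SE; edgeR, adjusted p = 0.0342). All 7 V2a IN markers had counts on every plate and summed to 518 and 356 counts per 1e+06 counts (CPM) on isl1a:GFP plates and 3351 and 3404 CPM on chx10:GFP plates.

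In both lines the reads spread over the whole set, from group 1 to group 13. All 48 Hox genes had a count on every plate, and together they took 2135 and 2528 CPM on isl1a:GFP plates and 4791 and 6090 CPM on chx10:GFP plates. Of the 48 genes, 36 reached 10 CPM on every plate, 5 reached 100 CPM on every plate, and 3 stayed under 10 CPM on all 4, namely hoxb1a, hoxb4a and hoxa13a. Only 1 read of hoxd13a was counted on isl1a:GFP plate 2, against 283 on plate 1 and 1407 and 1889 on chx10:GFP plates.

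The gene with the most reads in each group, by mean CPM over the 4 plates, was hoxb1b (28.4), hoxa2b (29.9), hoxa3a (271), hoxd4a (23.7), HOXB5 (ENSDARG00000054030; 126), HOXC6 (ENSDARG00000070343; 56.2), hoxb7a (142.5), hoxb8a (213), hoxa9b (224), hoxa10b (267), hoxc11a (139), HOXC12 (ENSDARG00000103133; 149) and hoxb13a (58.2) for groups 1 to 13 in order. These levels are not divided by gene length, so they are not compared between genes. As a share of all Hox counts, group 3 took 19.5% and 18.9% on isl1a:GFP plates and 22.9% and 22.6% on chx10:GFP plates. Groups 10 to 13 took 42.9% and 35.1% on isl1a:GFP plates and 39.7% and 36.4% on chx10:GFP plates, so that the lines overlapped in this share. The total of group 9 was 320 and 338 CPM on isl1a:GFP plates and 785 and 856 CPM on chx10:GFP plates. Group 10 had 346 and 377 CPM in isl1a:GFP and 800.4 and 1033 CPM in chx10:GFP sums. Both lay apart between the lines, while group 13 had 111 and 192 CPM in isl1a:GFP and 210 and 177 CPM in chx10:GFP sums and group 5 had 129 and 225 CPM in isl1a:GFP and 125 and 299 CPM in chx10:GFP sums, and the lines overlapped in both. By chromosomal cluster, the C genes held 31.1% and 28.7% of Hox counts in isl1a:GFP and 35.4% and 30.9% in chx10:GFP cells.

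**Figure D1:**
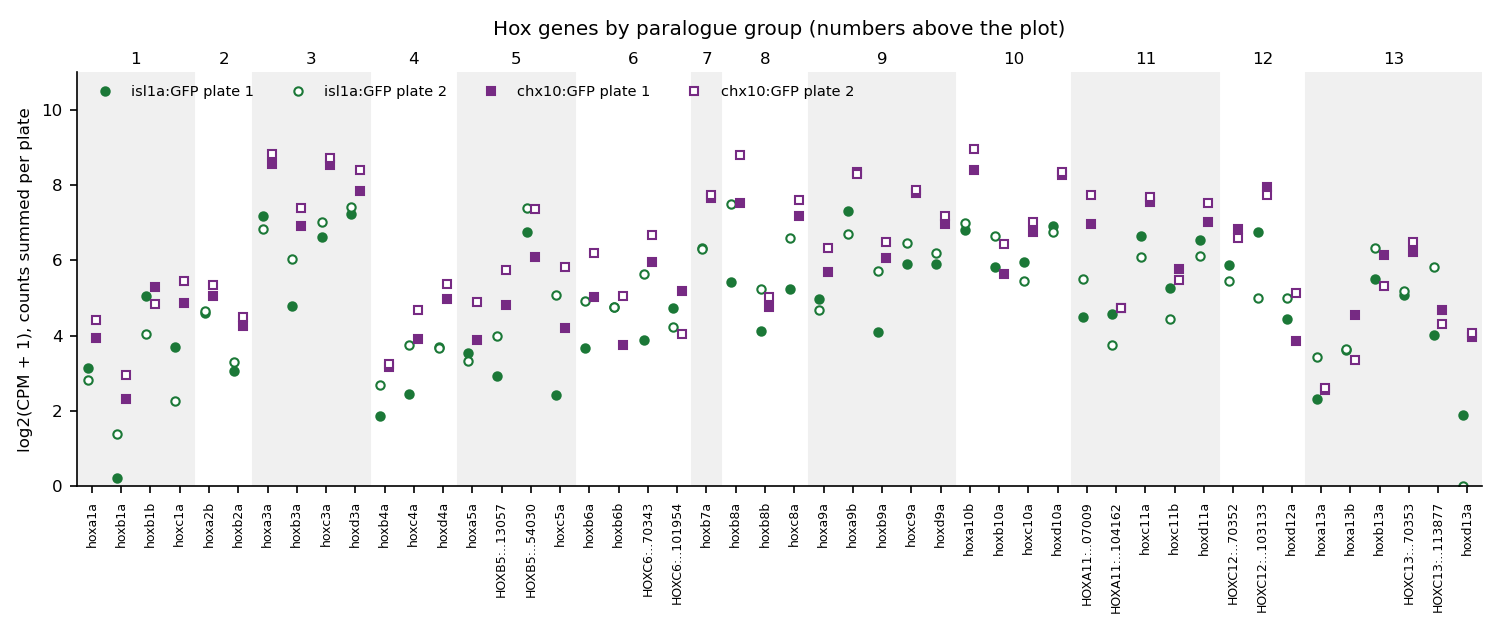
Level of each Hox gene as log2(CPM + 1), with counts summed over the passing wells of a plate (green circles, the 2 isl1a:GFP plates; purple squares, the 2 chx10:GFP plates; filled, plate 1; open, plate 2), ordered by paralogue group, whose number stands above the plot. For 36 of 48 genes both purple squares lie above both green circles, and for 0 genes the other way round.

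The first comparison asked how the sorted populations differ in Hox genes. Counts were summed per plate, and edgeR called a gene at an adjusted p under 0.05. Of the 48 genes, 5 were lower in isl1a:GFP than in chx10:GFP cells and 0 were higher, while over all genes tested 0.952% were called lower and 2.09% higher. At an unadjusted p under 0.05, 24 Hox genes were lower and 0 higher, where 17.4% of all genes passed in either direction. The median log2 difference was -1.18 over the Hox genes and 0.02 over all genes. DESeq2 called 21 Hox genes lower and 0 higher. The share of all genes that DESeq2 called is not given here or below, so its counts have no background beside them.

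The called genes were spread over groups 3, 7 and 10. The group 3 gene hoxa3a had 144 and 113 CPM on isl1a:GFP plates, against 377 and 452 CPM on chx10:GFP plates (log2 difference -1.67 ± 0.27 SE, adjusted p = 0.0305). Its paralogue hoxc3a had 97.0 and 130 CPM in isl1a:GFP cells, against 372 and 420 CPM in chx10:GFP cells (-1.76 ± 0.30, adjusted p = 0.0341). In mice, group 3 factors act in the hindbrain and cervical cord. For hoxb7a, the single group 7 gene, the isl1a:GFP plates gave 78.6 and 77.4 CPM and the chx10:GFP plates 200.5 and 214 CPM (-1.38 ± 0.25, adjusted p = 0.0447). Of group 10, whose members act in lumbar motoneurons of mice, hoxa10b had 110 and 127 CPM in isl1a:GFP cells and 338 and 493 CPM in chx10:GFP cells (-1.77 ± 0.31, adjusted p = 0.0396). The remaining one, hoxd10a, had 119 and 108 CPM in isl1a:GFP cells and 306 and 326 CPM in chx10:GFP cells (-1.45 ± 0.25, adjusted p = 0.0370). In all 5 genes the plates of the lines did not overlap.

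Counted by overlap alone, 36 of 48 Hox genes were lower on both isl1a:GFP plates than on both chx10:GFP plates, against 25.2% of all genes tested, and 0 were higher on both, against 24.3% of all genes. The exceptions with overlapping plates included HOXB5 (ENSDARG00000054030), which had 108 and 168 CPM in isl1a:GFP cells and 66.7 and 163 CPM in chx10:GFP cells, and hoxb13a, with 44.2 and 79.4 CPM in isl1a:GFP cells and 70.0 and 39.1 CPM in chx10:GFP cells. With 2 plates a line, the count of calls rested on single pools: it was 9 without isl1a:GFP plate 1, 11 without isl1a:GFP plate 2, and 0 without either chx10:GFP plate. In each of these fits a line has 1 pool, which is assumed to vary like the 2 pools of the other line. Isl1a:GFP plate 2 was also deposited in a table of its own, and wells of isl1a:GFP plate 1 lost most to the spike-in limit.

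The isl1a:GFP plates hold several cell classes, so MN-like wells were next set against V2a-like wells. These sums are part of those above and are not a second sample. Of the 48 Hox genes, 1 was lower in MN-like wells and 0 were higher, against 0.629% and 0.534% of all genes. It was hoxc9a, a group 9 gene whose mouse counterpart marks thoracic cord, with 33.2 and 49.4 CPM in MN-like sums, against 207 and 193 CPM in V2a-like sums (log2 difference -2.19 ± 0.31 SE, edgeR, adjusted p = 0.0426). Its gene model overlaps that of hoxc3a in RefSeq, and whether the 2 share reads was not tested. At an unadjusted p under 0.05, 21 Hox genes were lower and 2 higher, where 16.3% of all genes passed, and DESeq2 called 17 lower and 1 higher. The median log2 difference was -1.12 over the Hox genes and -0.04 over all genes.

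Those 2 genes with a positive difference, hoxa13a and hoxb13a, belong to group 13, the most caudal one. Another group 13 gene, hoxd13a, was among the lower ones (edgeR, unadjusted p = 0.0423). It had 81 and 1 counts in MN-like wells, against 1407 and 1511 in V2a-like wells. The rest of group 13 did not pass that limit in either direction. MN-like sums had 81.2 and 169 CPM of hoxb13a, against 73.5 and 42.9 CPM in V2a-like sums, so that all MN-like values were above the V2a-like ones. The called count was 19 without isl1a:GFP plate 1, 25 without isl1a:GFP plate 2, 0 without chx10:GFP plate 1 and 1 without chx10:GFP plate 2, again with a lone pool in 1 class.

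The make-up of the Hox reads, as shares of all Hox counts, also differed between the classes. Groups 10 to 13 held 53.9% and 45.9% of Hox counts in MN-like wells, against 40.8% and 41.5% in V2a-like wells. Group 13 alone held 9.5% and 14.5% in MN-like wells and 4.7% and 3.3% in V2a-like wells. Groups 5 to 9 held 18.7% and 30.7% in MN-like wells and 32.6% and 32.4% in V2a-like wells. The plates of the classes did not overlap in these 3 shares. They are parts of unlike totals, 1884 and 2375 CPM in MN-like and 4614 and 4745 CPM in V2a-like wells. A higher share is thus not a higher level. After thinning, group 13 had at least 10 reads in 17.5% and 22.3% of MN-like and 23.7% and 24.5% of V2a-like wells. With 2 plates a class, an exact permutation test cannot give a two-sided p under 0.33, so none was run.

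Among the isl1a:GFP classes, the total Hox level was 1942 and 1522 CPM in CSF-contacting-like wells, 1624 and 1666 CPM in serotonergic-like wells, 3381 and 3152 CPM in the otp cluster and 4231 and 4569 CPM in the nhlh2 cluster, with 1884 and 2375 CPM in MN-like wells. The nhlh2 and otp clusters stood above the other 3 classes on both plates. Oligodendrocyte markers moved with the nhlh2 cluster: 5 and 6 of 7 had counts and summed to 4194 and 9250 CPM there, against 1118 and 936 CPM from 6 of 7 in MN-like wells. Of these markers, olig1 was at 0 on both plates of the cluster and plp1a on plate 1, and their part in the result was not tested. In the otp cluster the same markers summed to 750 and 515 CPM. All 9 immature-neuron markers had counts in the nhlh2 cluster and summed to 13434 and 19621 CPM, against 3055 and 9799 CPM in MN-like wells. Radial glia and astrocyte markers (8 and 9 of 10 with counts) summed to 436 and 1114 CPM, against 171 and 275 CPM in MN-like wells. MN markers were read in the nhlh2 cluster too, where 6 of 7 had 10 counts in at least 10% of wells. Their mean z-score over the isl1a:GFP clusters was 0.214 there, against 0.703 to 0.982 in the clusters of MN-like wells. The median number of genes per well was 2575 and 3238.5 in the nhlh2 cluster, against 4904 and 4521 in MN-like wells, and the part of these measures was not tested either.

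No Hox gene passed the test between these classes and MN-like wells, with plate as a block. EdgeR called 0 of 48 in each of the 4 comparisons, and at an unadjusted p under 0.05 the counts were 9 in CSF-contacting-like wells, 12 in the nhlh2 cluster, 8 in the otp cluster and 8 in serotonergic-like wells, where 10.9%, 12.9%, 4.99% and 11.5% of all genes passed in the same order. DESeq2 called 5, 11, 3 and 7 in the same order, with no share of all genes beside these counts. Over all genes, edgeR called 0.679% higher and 0.654% lower in CSF-contacting-like wells, 0.134% and 0.783% in the nhlh2 cluster, 0.0149% and 0.0198% in the otp cluster and 0.456% and 0.748% in serotonergic-like wells. With 2 pools, a gene that was not called is not shown to be alike in the classes.

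Genes that lay apart between classes but missed the threshold included some of group 13. There, hoxa13b had 875 and 907 counts in MN-like wells. It had 0 on both plates in serotonergic-like wells and the otp cluster, which are sums of fewer wells. In the nhlh2 cluster it had 0 and 34.3 CPM, which overlapped the 18.9 and 13.5 CPM of MN-like wells. CSF-contacting-like wells had 9.9 and 0 CPM of it. Only 3.9% and 6.8% of thinned MN-like wells reached the read minimum for hoxa13b. A 0 in a smaller class therefore does not show a difference. Other genes that lay apart were in the middle groups. HOXB5 (ENSDARG00000054030) had 245 and 257 CPM in CSF-contacting-like wells and 225 and 398 CPM in serotonergic-like wells, with 13.4 and 55.7 CPM in MN-like wells (log2 differences 3.47 ± 0.81 and 3.54 ± 0.81 SE, edgeR, adjusted p = 0.0880 and 0.0828). The neighbouring gene hoxb6b had 63.0 and 40.2 CPM in CSF-contacting-like wells and 46.8 and 37.6 CPM in serotonergic-like wells, with 1.1 and 4.6 CPM in MN-like wells (adjusted p = 0.104 and 0.127). For both genes, each class lay above MN-like wells on both plates. Group 8, whose hoxb8a acts in the dorsal horn and trunk cord of mice, was high in the nhlh2 cluster, where hoxb8a had 427 and 604 CPM, and on 1 plate of the otp cluster, with 114 and 481 CPM, against 10.9 and 90.4 CPM in MN-like wells. Serotonergic-like wells held 53.2% and 58.4% of their Hox counts on groups 5 to 9.

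**Figure D2:**
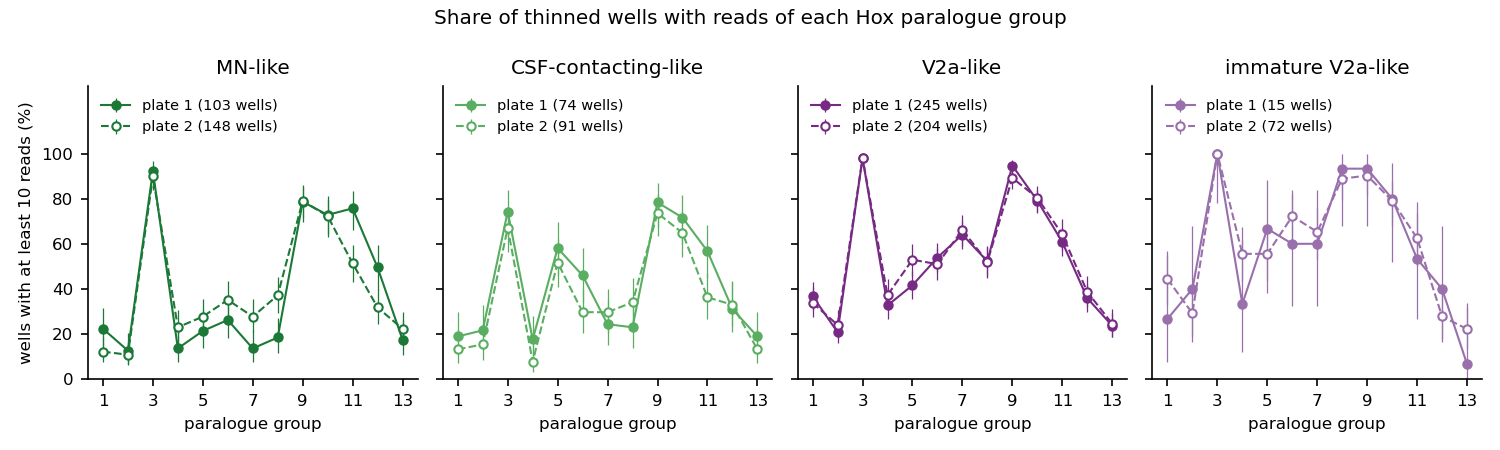
Share of wells (%) with at least 10 reads of a paralogue group, by group 1 to 13, after each well was thinned to 240501 counts, in MN-like, CSF-contacting-like, V2a-like and immature V2a-like wells (filled, plate 1; open and dashed, plate 2; bars, exact 95% Clopper-Pearson intervals, which cover counting error only). Group 3 was read in 92.2% and 89.9% of MN-like and in 98.0% and 98.0% of V2a-like wells, and group 13 in 17.5% and 22.3% of MN-like and 23.7% and 24.5% of V2a-like wells.

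A sum over wells does not separate more wells with reads from more reads per well, so wells were also counted one by one. Each was thinned to 240501 counts, where 10 reads equal 41.6 CPM, and shallower wells were left out (22 and 14 isl1a:GFP and 40 and 49 chx10:GFP wells). Group 3 had at least 10 reads in 86.9% and 84.2% of isl1a:GFP wells and in 98.1% and 98.6% of chx10:GFP wells. Group 9 had them in 79.7% and 78.2% of isl1a:GFP wells and 94.6% and 89.5% of chx10:GFP wells. Most wells of either line thus held reads of both a rostral and a more caudal group.

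Reads of group 13 were in 16.0% and 15.8% of isl1a:GFP wells and 22.7% and 23.9% of chx10:GFP wells. The largest gap was in group 7, hoxb7a, with 29.5% and 37.2% of isl1a:GFP wells and 63.8% and 65.9% of chx10:GFP wells. The median well held 8 and 8 Hox genes in isl1a:GFP cells and 13 and 14.5 in chx10:GFP cells, with at most 20, 22, 24 and 28 on the 4 plates.

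The highest paralogue group read in a well, which tells how far along the clusters its reads reach, had a median of 11 on all 4 plates. It was 12 or 13 in 56.3% and 41.9% of MN-like wells and in 40.4% and 41.7% of V2a-like wells, so that the classes differed by less than the MN-like plates did. It was 12 or 13 in 29.6% and 25% of serotonergic-like wells and in 34.8% and 4.3% of otp wells. Without thinning, the share with group 13 reads was 21.6% in MN-like and 25.5% in V2a-like wells as a mean of both plates, against 19.9% and 24.1% after thinning.

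Reads of group 13 and of rostral groups were found in the same wells. On the isl1a:GFP plates, 8.02% and 5.73% of wells held reads of group 13 and of group 4 or 5 together, where the product of the separate shares was 7.37% and 7.99%. On the chx10:GFP plates, 11.5% and 13.04% held both, and the products were 13.8% and 16.9%. In 3 of 4 plates the joint share was below the product, and on isl1a:GFP plate 1 it was above. Of the wells with group 13 reads, 50% and 36.4% in isl1a:GFP and 50.8% and 54.5% in chx10:GFP cells also held group 4 or 5, and of the wells with group 4 or 5, 17.4% and 11.3% in isl1a:GFP and 19% and 18.5% in chx10:GFP cells also held group 13.

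MN-like wells formed 5 clusters without Hox genes, and each was set against the mean of the other 4, with plate as a block. The fits of MN clusters lacked the variable genes of the clustering step, while no Hox gene was removed for being variable. Shares of all genes called in MN clusters thus come from a less variable background, which can make the Hox genes stand out more. Hox genes of group 13 were high in the third cluster. There, hoxa13b and hoxb13a were higher, which makes 2 of 47 Hox genes tested, against 0.0461% of all genes called higher and 0% lower. In mice, group 13 genes are expressed at the caudal end of the axis. The hoxb13a level was 373 and 636 CPM in cluster 3, against 0 to 87.8 CPM in the other 4 clusters over both plates (edgeR, adjusted p = 0.00953). As a plain ratio of CPM it was 14.7-fold and 17.8-fold above the mean of the other 4. For hoxa13b it was 97.6 and 42.8 CPM in cluster 3, against 0 to 24.8 CPM in the others, 46.1-fold and 6.32-fold above their mean (edgeR, adjusted p = 0.0452, and 0.244 with at least 3000 genes per well). Fitted log2 differences of genes at or near 0 in a cluster depend on the fit's prior count, so for these genes the ratios are given.

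Cluster 3 thus lay above every other cluster on both plates for both genes. The rest of group 13 had values of the same order on at least 1 plate elsewhere: HOXC13 (ENSDARG00000113877) had 110 and 206 CPM in cluster 3 and up to 117 CPM in cluster 5, and HOXC13 (ENSDARG00000070353) had 67.2 and 165 CPM in cluster 3 and up to 260 CPM in cluster 2. Group 13 held 35.5% and 50.4% of all Hox counts of cluster 3, with 0.4% to 16.4% in the other clusters. Not every well of the cluster carried these reads: 6 of 20 and 18 of 34 wells had a hoxb13a read, and the well with the most gave 48.9% and 14.1% of the hoxb13a counts. Of hoxa13b, 4 and 6 wells had a read, and a single well gave 65.9% and 64.8% of the counts.

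Cluster 4 was the opposite case. It had 0 counts of hoxb13a on both plates, against a mean of 119 and 195 CPM in the other clusters (edgeR, adjusted p = 0.0169). Cluster 3 carries most of that mean. Without it, a setting chosen after the data were seen, the mean of the remaining 3 clusters was 33.9 and 47.6 CPM. Reads without molecular identifiers that come from few wells set no bound on the fold, so none is given. With at least 3000 genes per well the call was lost (adjusted p = 0.0590). This was 1 Hox gene called lower of 47, against 0.0395% of all genes lower and 0.118% higher. The group 7 gene hoxb7a also stood at 0.1 and 1.0 CPM there, the lowest of the 5 clusters on both plates, and 0% of its thinned wells had 10 reads of it. With 0 of 24 and 0 of 20 such wells, for hoxb7a and likewise for hoxb13a, the exact 95% Clopper-Pearson interval allows a share of up to 14.2% and 16.8%. Reads of group 11 were in 91.7% and 85.0% of cluster 4 wells, the highest shares among the MN clusters on both plates.

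**Figure D3:**
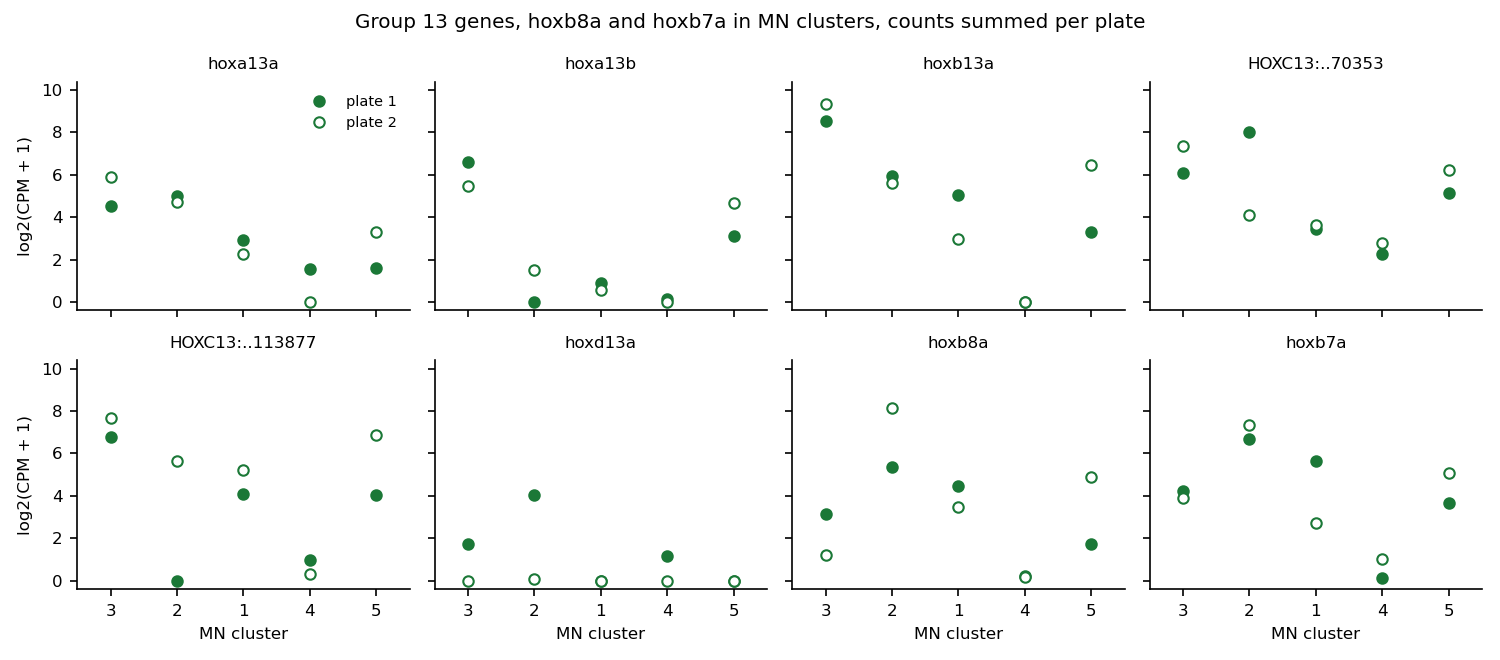
Level of the 6 genes of paralogue group 13, of hoxb8a and of hoxb7a in the 5 MN clusters, as log2(CPM + 1) of counts summed per plate (filled circles, isl1a:GFP plate 1; open circles, plate 2). Cluster 3 stands above the others for hoxb13a (373 and 636 CPM) and hoxa13b, cluster 2 for hoxb8a and hoxb7a, and hoxb13a is at 0 in cluster 4.

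Cluster 2, in which 6 and 7 of 8 markers of fast MNs had counts and summed to 3853 and 4237 CPM, against 48.0 to 713 CPM in the other clusters, carried more Hox reads than the others. Its total was 3424 and 3621 CPM, against 1477 to 2198 CPM in the other clusters. Its wells also had the fewest genes, with medians of 4306 and 3908, against 4614.5 to 5785.5 in the others. Immature-neuron markers (7 and 9 of 9 with counts) summed to 4348 and 11796 CPM there, against 2496 to 4581 CPM on plate 1 and 7236 to 11053 CPM on plate 2 in the others, and radial glia and astrocyte markers (5 and 8 of 10) to 438 and 554 CPM, against 67.9 to 196 CPM. The part of these markers was not tested. Higher were 6 of 47 Hox genes and lower 0, against 0.921% and 1.09% of all genes. With at least 3000 genes per well, 7 Hox genes were called higher in cluster 2. The 6 called without that limit were hoxb1b, hoxb3a, hoxd3a, hoxb7a, hoxb8a and hoxa10b, of groups 1, 3, 7, 8 and 10. At an unadjusted p under 0.05, 24 were higher and 3 lower, where 13.6% of all genes passed, and the median log2 difference was 1.47 over Hox genes and -0.08 over all genes.

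The hoxb8a level was 40.0 and 283 CPM in cluster 2, against 0.1 to 28.7 CPM in the other clusters, 5.17-fold and 28.1-fold above their mean (edgeR, adjusted p = 0.00891). On plate 1 a single well gave all of these reads, while on plate 2 28 of 46 wells had some. For hoxd3a the level was 503 and 388 CPM in cluster 2, against 44.9 to 194 CPM (1.85 ± 0.27, adjusted p = 0.00422), with reads in 9 of 9 and 39 of 46 wells. For hoxb1b it was 89.4 and 37.2 CPM, against a mean of 5.12 and 1.05 CPM in the others, 17.4-fold and 35.4-fold below these levels (edgeR, adjusted p = 0.0107). The levels in cluster 2 came from 279 and 740 counts. Over all thinned MN-like wells, only 6.8% and 5.4% had 10 reads of hoxb1b, so its folds can rest on few wells. In RefSeq its model overlaps those of hoxb5b and hoxb6b. With 9 wells on plate 1, the cluster was the smallest, and shares there rest on 8 thinned wells. On plate 2, 79.1% of its wells had 10 reads of group 8 and 72.1% of group 7, with at most 42.9% and 28.6% in the other clusters.

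In MN clusters 1 and 5, edgeR called 0 of 47 Hox genes in either direction, where 0.0263% of all genes were higher and 0% lower in each. At an unadjusted p under 0.05, 8 passed in cluster 1 and 10 in cluster 5, where 5.24% and 6.64% of all genes did, and DESeq2 called 1 and 5.

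The chx10:GFP wells formed 4 clusters, and each was set against the mean of the other 3. Over the 4 clusters, 25 Hox differences were called, and the share of all genes called is given with each cluster. As in the MN clusters, that share lacks the variable genes of the clustering step but the Hox genes do not, which can overstate the contrast. Cluster 4 is the immature V2a-like class, in which 8 of 9 markers of immature neurons had counts and summed to 7819 and 5624 CPM, against 2125 to 3271 CPM in the other clusters. In cluster 4, 16 of 48 Hox genes were higher and 0 lower, which is 33.3% of the set, against 2.40% of all genes higher and 2.77% lower. At an unadjusted p under 0.05, 27 were higher and 2 lower, where 18.1% of all genes passed. The median log2 difference was 1.27 over Hox genes and -0.39 over all genes.

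The genes that rose in cluster 4 were hoxc1a of group 1, hoxb3a, hoxc3a and hoxd3a of group 3, HOXB5 (ENSDARG00000054030), hoxb6a, HOXC6 (ENSDARG00000070343), hoxb8a, hoxb8b, hoxa9a, hoxb9a, hoxc9a, hoxa10b, hoxb10a, HOXA11 (ENSDARG00000007009) and hoxd11a. All lie in groups 1 to 11, and 0 of the 9 genes of groups 12 and 13 were called (DESeq2 called 24 genes higher and 1 lower over all groups). The largest difference was that of hoxb8a, with 956 and 1274 CPM in cluster 4, against 69.3 to 238 CPM in the other clusters (2.96 ± 0.21 SE, edgeR, adjusted p = 4.07e-04). At least 10 reads of it were in 73.3% and 73.6% of thinned cluster 4 wells, against 12.3% to 41.3% elsewhere.

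The group 3 gene hoxc3a had 1127 and 794 CPM in cluster 4, against 54.4 to 684 CPM (2.54 ± 0.17, adjusted p = 3.82e-04). Also of the C genes, hoxc9a, whose model overlaps that of hoxc3a, had 444 and 358.5 CPM, against 47.1 to 408 CPM in the others (1.65 ± 0.18, edgeR, adjusted p = 0.00181). For hoxc9a, cluster 4 thus did not stand clear of cluster 1. For hoxb9a the level was 270 and 230 CPM, against 11.2 to 104 CPM (2.85 ± 0.29, adjusted p = 0.00142), and for hoxa10b 885 and 820 CPM, against 56.0 to 692 CPM (2.14 ± 0.18, adjusted p = 8.78e-04). Of group 5, HOXB5 (ENSDARG00000054030) had 291 and 323 CPM in cluster 4, against 33.0 to 142 CPM in the others (2.09 ± 0.25, adjusted p = 0.00238), which kept both plates of cluster 4 above the rest.

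The b copy of hoxb8 followed the a copy in this cluster, with 98.0 and 76.7 CPM, against 10.6 to 32.7 CPM in the others (2.20 ± 0.47, edgeR, adjusted p = 0.0323). The group 6 gene hoxb6a had 97.3 and 183 CPM in cluster 4, against 10.47 to 57.2 CPM (2.47 ± 0.37, adjusted p = 0.00677). Both genes also stood clear of the other clusters. The group 11 gene hoxd11a had 150 and 305 CPM in cluster 4 and 228 and 222 CPM in cluster 1, so that these overlapped, and 49.1 to 81.6 CPM in clusters 2 and 3. HOXC13 (ENSDARG00000113877) had 2.2 and 7.5 CPM in cluster 4 and 12.5 to 53.4 CPM in the others, and with HOXC12 (ENSDARG00000103133; 113 and 130 CPM in cluster 4, 130 to 355 CPM in the others) it made up the 2 genes with an unadjusted p under 0.05 and a negative difference.

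The number of genes per well moved with cluster 4 too. Its wells had a median of 2301 and 2487 genes, against 3123 to 4898 in the other clusters, and it held 15 wells on plate 1 and 81 on plate 2. Among oligodendrocyte markers, 6 and 5 of 7 had counts in cluster 4, with olig1 at 0 on both plates and sox10 on plate 2. They summed to 4844 and 5750 CPM, inside the range of 1691 to 9847 CPM from 4 to 7 of 7 in the other clusters. The part of these measures in the result was not tested. When only wells with at least 3000 genes were kept, 6 and 18 wells of the cluster remained and 5 Hox genes were called higher, and HOXA11 (ENSDARG00000007009) and hoxd11a changed sign to -1.21 and -1.51 with adjusted p = 0.467 and 0.609.

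**Figure D4:**
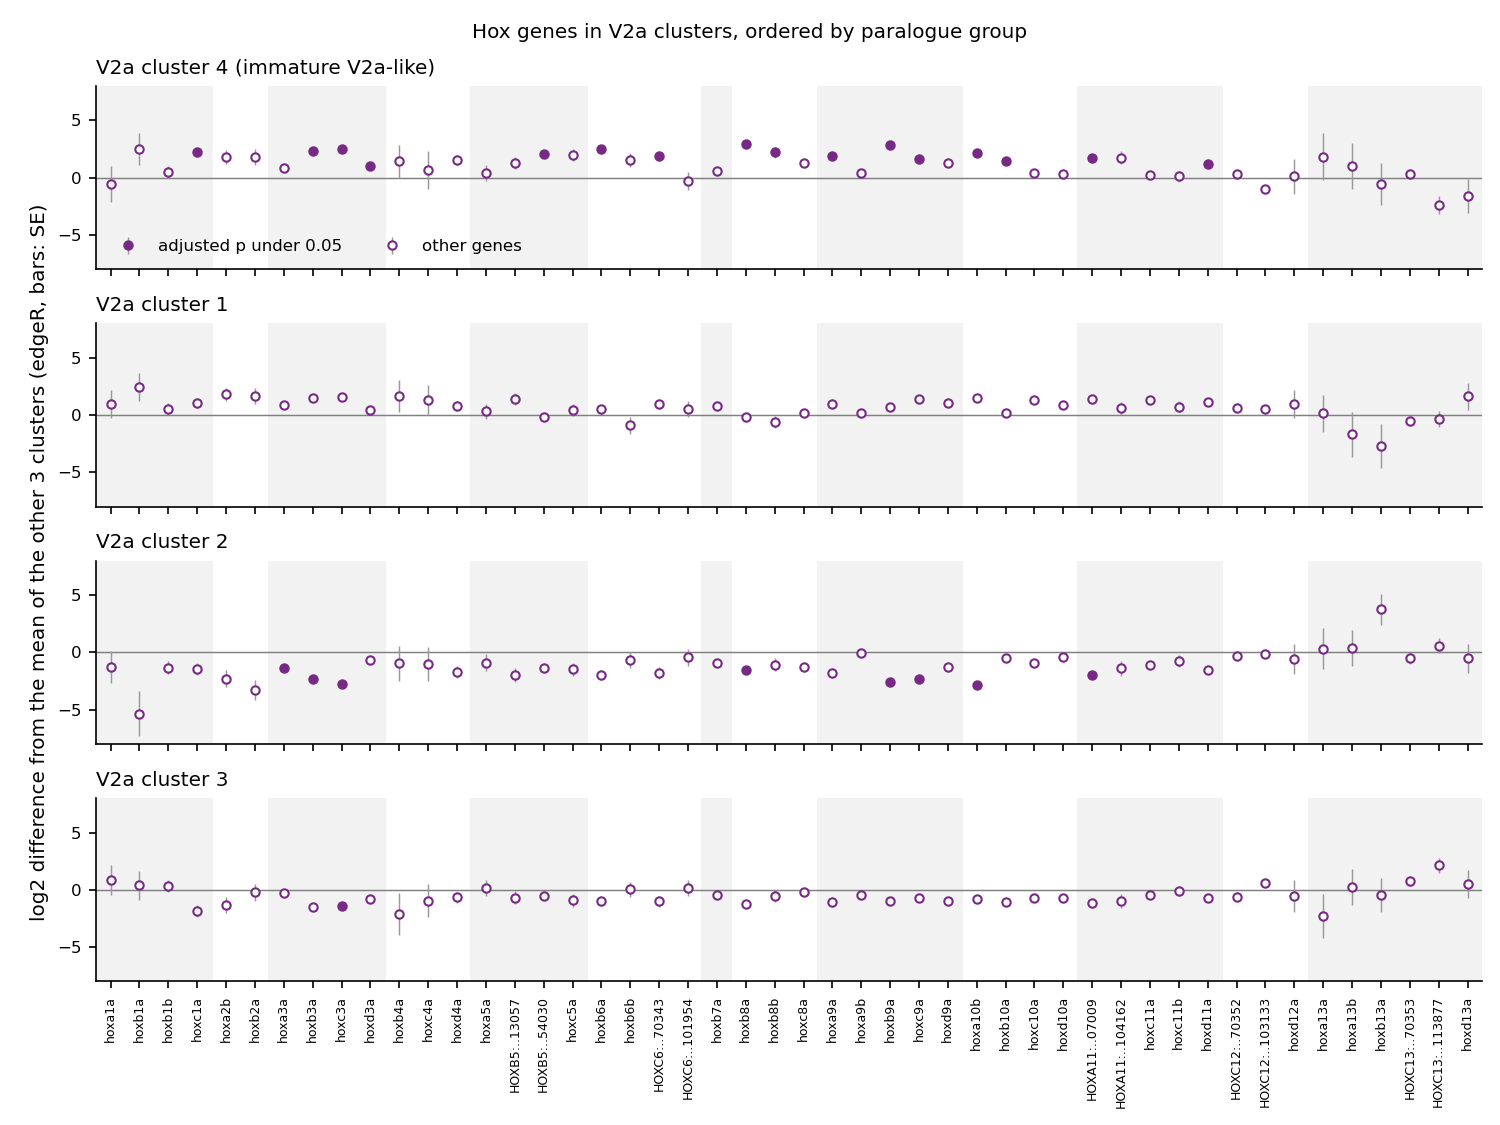
Log2 difference of each Hox gene between a V2a cluster and the mean of the other 3 (edgeR; bars, SE; filled, adjusted p under 0.05), ordered by paralogue group with the groups shaded in turn. Cluster 4 is at the top with 16 filled genes above 0, all in groups 1 to 11, and cluster 2 shows 8 filled genes below 0.

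V2a cluster 2 was the low end. In it 8 of 48 Hox genes were lower and 0 higher, against 0.415% of all genes lower and 0.937% higher. They were hoxa3a, hoxb3a, hoxc3a, hoxb8a, hoxb9a, hoxc9a, hoxa10b and HOXA11 (ENSDARG00000007009). The hoxa10b level was 56.0 and 64.1 CPM in cluster 2, against 134 to 885 CPM in the other clusters (-2.84 ± 0.24 SE, edgeR, adjusted p = 0.00202). For hoxc3a it was 57.5 and 54.4 CPM, against 81.4 to 1127 CPM (-2.77 ± 0.23, adjusted p = 0.00190). With at least 3000 genes per well, 1 of the 8 calls was kept, hoxa10b (-2.42, adjusted p = 0.0279), and all 8 differences stayed negative. The wells of cluster 2 had the most genes, with medians of 4773 and 4898, against 2301 to 4559 in the other clusters, and the part of this in the result was not tested. Its total Hox level was 2335 and 2625 CPM, against 2876.5 to 10132 CPM in the other clusters. In cluster 3, hoxc3a was lower than the mean of the others, 1 of 48, against 0.0373% of all genes lower and 0.341% higher (-1.37 ± 0.21, edgeR, adjusted p = 0.0415). Its level there was still above that of cluster 2 on both plates. With at least 3000 genes per well this call was lost.

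The group 13 gene hoxb13a went against the rest of cluster 2. It had 191 and 136 CPM there, against 0 to 27.6 CPM in the other clusters, but did not pass the test, and only 8.2% and 8.8% of thinned wells had 10 reads of it. Group 13 held 12.5% and 9.6% of the Hox counts of cluster 2 and 0.6% to 7.1% in the others.

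Cluster 1 had 7303 and 6884 CPM of Hox reads, and edgeR called 0 of 48 genes in it in either direction, against 0.00533% of all genes each way. At an unadjusted p under 0.05 16 were higher and 0 lower, where 7.48% of all genes passed, and DESeq2 called 6 higher. Each cluster is set against the mean of the others, so a high cluster 4 lowers the differences of the remaining 3. MN markers also varied between V2a clusters, from 2890 and 3731 CPM in cluster 1 and 1313 and 1884 CPM in cluster 4 to 39.9 to 397 CPM in clusters 2 and 3, and their part was not tested. Only 2 of 7 MN markers had 10 counts in at least 10% of wells in clusters 1, 3 and 4, and 1 in cluster 2. The paper names chata and vachta as MN markers and also reports them as enriched in its fast V2a INs.

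Across all wells of a plate, neighbouring paralogue groups tended to go together, more clearly in some classes than in others. Counts were summed per group and well and taken as log2(CPM + 1). Pearson r between neighbouring groups had a median of 0.20 and 0.29 on isl1a:GFP plates and 0.25 and 0.29 on chx10:GFP plates, over 237, 349, 260 and 276 thinned wells. These are descriptions over wells that share a pool, a plate and a depth, with no test. Within MN-like wells the median was 0.15 and 0.31, and within V2a-like wells 0.24 and 0.29. Within CSF-contacting-like wells it was 0.04 and 0.09, and within serotonergic-like wells 0.11 and -0.02. Over all wells, groups 2 apart had medians of 0.08 and 0.11 on isl1a:GFP plates and 0.19 and 0.24 on chx10:GFP plates. On 3 of the 4 plates the highest value was that of groups 10 and 11, whose r was 0.19 and 0.47 on isl1a:GFP plates and 0.59 and 0.70 on chx10:GFP plates. Groups 12 and 13 had r of 0.21 and 0.34 on isl1a:GFP plates and 0.54 and 0.62 on chx10:GFP plates.

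Most pairs within groups 1 to 8 were positive and many across to groups 9 to 13 negative, a split that was chosen after its values were seen. Among groups 1 to 8 the median r was 0.11 and 0.20 on isl1a:GFP plates and 0.18 and 0.19 on chx10:GFP plates, and 25, 28, 28 and 28 of 28 pairs were positive. Among groups 9 to 13 it was 0.04 and 0.15 on isl1a:GFP plates and 0.27 and 0.34 on chx10:GFP plates. Pairs with 1 group on each side had a median of 0.00 and -0.08 on isl1a:GFP plates and -0.03 and -0.08 on chx10:GFP plates. Groups 8 and 12 were among the 3 lowest pairs on each plate, with -0.18 and -0.21 on isl1a:GFP plates and -0.34 and -0.52 on chx10:GFP plates. Within V2a-like wells alone the 3 medians were 0.16 and 0.22 for groups 1 to 8, 0.27 and 0.35 for groups 9 to 13, and -0.04 and -0.04 across. Within MN-like wells they were 0.15 and 0.20, -0.03 and 0.11, and 0.03 and -0.12.

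**Figure D5:**
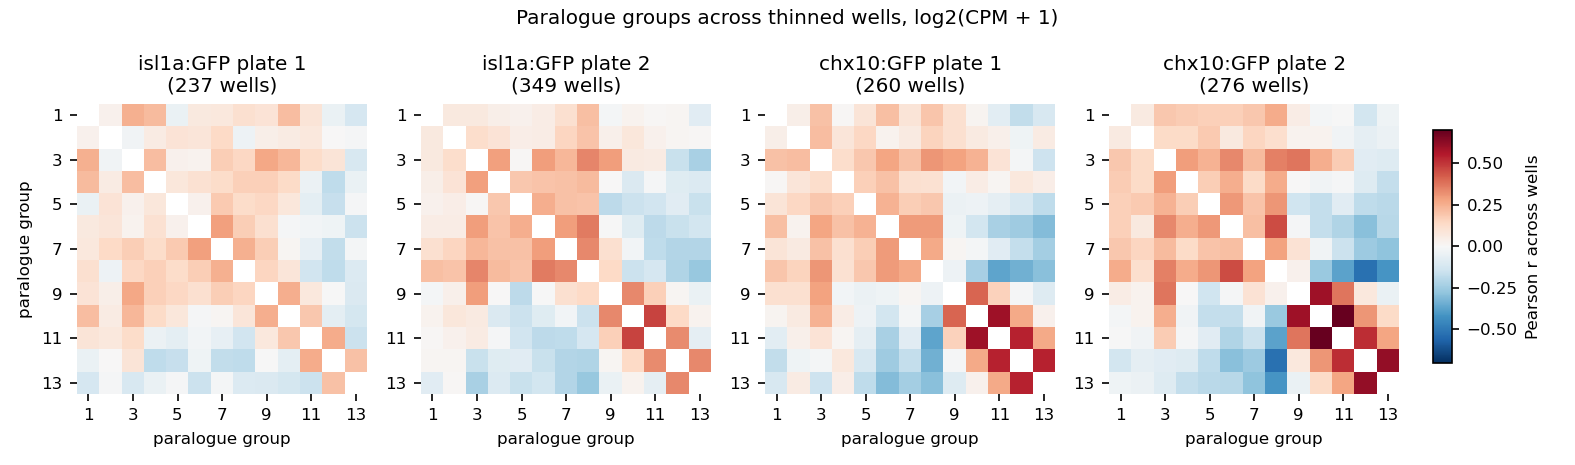
Pearson r across thinned wells between the summed counts of paralogue groups 1 to 13, as log2(CPM + 1), on each plate (red, positive; blue, negative; the diagonal is left white). Warm blocks lie within groups 1 to 8 and within groups 9 to 13, most clearly on chx10:GFP plates, where groups 10 and 11 reach 0.59 and 0.70 and groups 8 and 12 fall at -0.34 and -0.52.

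Among single genes, pairs from neighbouring groups of 1 cluster letter had a higher median r (0.18 and 0.22 on isl1a:GFP plates, 0.23 and 0.26 on chx10:GFP plates) than neighbouring pairs of different letters (0.07 and 0.10 in isl1a:GFP, 0.09 and 0.15 in chx10:GFP wells). Members of the same paralogue group lay between these, with 0.11 and 0.17 on isl1a:GFP plates and 0.17 and 0.22 on chx10:GFP plates. The pair with the highest lowest value was hoxc11b and HOXC12 (ENSDARG00000103133), with r from 0.50 to 0.57 over the 4 plates. Then came hoxd9a and hoxd10a (0.36 to 0.49) and hoxa10b and HOXA11 (ENSDARG00000007009; 0.34 to 0.64). Adjacent genes may share reads where their models overlap, and this was not tested.

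Outside the Hox genes, the 5 genes most like group 13, by the lowest r over the 4 plates among 7287 genes, were tox3 (0.11), rybpb (0.10), zfhx4 (0.09), rcan2 (0.08) and gpr139 (0.08). Those most like groups 4 and 5 were sulf2a (0.10), calb2a (0.10), cdh2 (0.10), rasa4 (0.09) and malat1 (0.08). All of these values are weak.

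Zebrafish copies were read side by side, and in all 11 pairs both copies reached 5 CPM on at least 1 plate. Within a pair the plates could point in different directions. For hoxb8, the a copy had 42.2 and 180 CPM on isl1a:GFP plates and 182 and 445 CPM on chx10:GFP plates, while the b copy had 16.5 and 36.5 CPM in isl1a:GFP and 26.0 and 31.8 CPM in chx10:GFP cells. Only the a copy was separated between the MN-like and V2a-like sums, with 10.9 and 90.4 CPM in MN-like and 144 and 170 CPM in V2a-like wells, while the b copy had 4.1 and 18.8 CPM in MN-like and 22.4 and 16.9 CPM in V2a-like wells. For hoxa11, one copy (ENSDARG00000007009) had 21.4 and 44.1 CPM in isl1a:GFP and 124 and 211 CPM in chx10:GFP cells, and the other (ENSDARG00000104162) had 22.7 and 12.5 CPM in isl1a:GFP and 25.5 and 25.7 CPM in chx10:GFP cells. The copies of hoxb1 differed in reach, since hoxb1a stayed under 7 CPM on every plate while hoxb1b had 32.1 and 15.4 CPM in isl1a:GFP and 38.5 and 27.6 CPM in chx10:GFP cells. For hoxb6, hoxb6a had 11.9 and 29.4 CPM in isl1a:GFP and 31.8 and 72.9 CPM in chx10:GFP cells, and hoxb6b had 26.4 and 26.4 CPM in isl1a:GFP and 12.5 and 32.0 CPM in chx10:GFP cells.

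Genes that work with Hox factors were read from lists chosen by symbol. Between the lines, 2.09% of all genes tested were called higher in isl1a:GFP cells and 0.952% lower, and the counts below stand against these shares. Of 14 Hox cofactor genes, only meis3 was called, with 49.8 and 42.5 CPM in isl1a:GFP cells, against 209 and 153 CPM in chx10:GFP cells (-1.94 ± 0.28 SE, edgeR, adjusted p = 0.0225). It was lower in MN-like than in V2a-like wells too (-2.69 ± 0.27, adjusted p = 0.0187). The median log2 difference of the cofactors was 0.09 between the lines. Of 18 genes tested that act upstream of Hox genes or lie beside them, 1 was higher in isl1a:GFP cells, aldh1a2, which makes retinoic acid (4.95 ± 0.52, adjusted p = 0.00923). Of 21 factors that act with or after Hox genes in spinal neurons, 7 were higher and 1 lower in isl1a:GFP cells. The higher ones, isl1a, mnx1, mnx2a, a copy of ISL2 (ENSDARG00000003971), lhx1a, nr2f2 and foxp4, are in part markers of MNs, and the lower one, lhx3, marks V2a INs and MNs. Of 24 Polycomb and Trithorax genes, which keep Hox genes silent or active, a copy of SUZ12 (ENSDARG00000070256) was higher (3.0 ± 0.44, adjusted p = 0.0222).

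In immature V2a-like cluster 4, which had more called Hox genes than any other cluster, the lists moved both ways. There, 2.40% of all genes were called higher and 2.77% lower. Of 13 cofactors tested, pbx4 and a copy of PKNOX1 (ENSDARG00000018765) were higher and meis2a and meis2b lower. The pbx4 level was 171 and 183 CPM in cluster 4, against 41.3 to 104 CPM in the other clusters (1.43 ± 0.25, adjusted p = 0.0139). Meis2b had 0.44 and 1.4 CPM in cluster 4, 2.5 and 3.0 CPM in cluster 1, and 73.8 to 153 CPM in clusters 2 and 3, so it was lowest in the 2 clusters with the most Hox reads. Of 20 Polycomb and Trithorax genes tested, ezh2, rnf2, kmt2bb and a copy of BMI1 (ENSDARG00000006010) were higher and ezh1 and cbx7a lower. The ezh2 level, a methyltransferase that silences Hox genes, was 59.2 and 74.0 CPM in cluster 4, against 5.1 to 21.7 CPM in the others (2.70 ± 0.59, adjusted p = 0.0348). Tgif1, a repressor of retinoic acid signalling, was higher (1.40 ± 0.27, adjusted p = 0.0207), as was lhx1a, and pou3f1 was lower.

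In V2a cluster 2, meis2a (2.81 ± 0.22, adjusted p = 0.00139), meis2b and pou3f1 were higher and meis1b lower (edgeR). In cluster 3, meis1b and meis2b were higher. Among MN clusters, meis2b was higher in cluster 4 (4.78 ± 0.71, adjusted p = 0.0175), along with pou3f1, and mnx2b was lower there. In MN cluster 2, pknox2, a copy of BMI1 (ENSDARG00000006010), mnx2a and mnx2b were higher, and meis1b, meis2b, pou3f1 and nr2f2 lower. In cluster 3, mnx2b was higher. Not all list genes were tested. The MN cluster fits held 11 of 14 cofactors, 6 of 19 upstream or neighbouring genes, 19 of 24 Polycomb and Trithorax genes and 12 of 21 spinal factors. In the V2a cluster fits these were 13, 10, 20 and 19. The share of all genes called is given with each class and cluster above. Against MN-like wells, meis2a, mnx1 and nr2f1a were lower in CSF-contacting-like wells, and the same 3 genes with isl1a, nr2f2 and pou3f1 in serotonergic-like wells. In the nhlh2 cluster ezh1 was lower and kdm6ba, a demethylase that opposes Polycomb silencing, higher, and in the otp cluster mnx1 was lower. The isl1a:GFP classes were formed and named by expression, and the genes used for this stayed in the test. Lower MN markers outside MN-like wells are therefore no separate result.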

How the data were processed

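The authors aligned Smart-seq2 reads with STAR 2.5.3a to GRCz11, kept uniquely mapped reads, and deposited whole-number counts per gene and well in 2 tables, with isl1a:GFP plate 2 in a table of its own. The counting program is not given in the sources used here. Members and lists were chosen with earlier results of these data known. Spike-ins (3.17% of counts) and the reporter (0.517%) were left out of library sizes. Of 32519 Ensembl identifiers, 29200 had a symbol.

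Wells were clustered with Seurat 5.3.0 in R 4.3.3 (2000 variable genes, Hox genes held out, 10 components, resolution 0.6, isl1a:GFP plates integrated over 30 dimensions). No doublet caller was run. Counts summed per plate and class were fitted with edgeR 4.0.16 (quasi-likelihood test, TMM, filterByExpr, Benjamini-Hochberg over all genes tested), with DESeq2 1.42.0 as an alternative. The lines and MN-like against V2a-like wells were fitted without a block. Classes and clusters of 1 line came from the same pools, so their fits had the plate as a block, and the deviations of same-plate sums correlated at r = 0.11 (10 pairs of sums), 0.15 (10) and 0.05 (6) for isl1a:GFP classes, MN clusters and V2a clusters. The V2a fit held all 4 chx10:GFP clusters. In the fits of MN and V2a clusters, the variable genes of the clustering step were removed before testing and adjustment. Hox genes were not among them and stayed in. In the fits without a block, p-values measure the spread between pools. With the plate as a block, they measure how the differences between classes or clusters vary from plate to plate. Reads carry no molecular identifiers, so intervals cover counting error only.

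Named genes were the leading gene of each paralogue group, every Hox gene called, both copies of a pair where each reached 5 CPM on a plate, the 5 genes most like group 13 and most like groups 4 and 5, and called list members. Not found by symbol were ring1 and pcgf2 of the lists and sst1.1, pvalb6, calca, pecam1, hbba1 and hbba2 of the markers. Alternatives were another normalization, no filter on low counts, DESeq2, deeper wells, thinned wells, other read minimums and cluster resolutions, and leaving out a plate.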

Additional observations from a re-analysis of the deposited data

Results flagged for a closer look

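Wells that failed the quality limits are used in no comparison, and each plate's failed wells still held Hox reads. On isl1a:GFP plate 1 these were 1543 CPM over 125 failed wells, of which 31 had a Hox read, with a median of 208 genes per well. On isl1a:GFP plate 2 they were 802 CPM over 21 wells, of which 18 had a Hox read. On chx10:GFP plate 1 they were 6748 CPM over 84 wells, of which 68 had a Hox read, and on chx10:GFP plate 2 they were 3209 CPM over 59 wells, of which 51 had a Hox read. These values were set against no control level.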

How the results depend on the processing

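Of 372 alternative values for the 40 called Hox differences, 370 kept their sign. Among these values, 40 come from the limit on mitochondrial counts, which removed no well, so they only repeat the main fit. DESeq2, RLE scaling and no filter on low counts each called all 40 again, and thinned wells 39. With at least 3000 genes per well, 14 were called again, 24 kept their sign without a call and 2 changed sign. With at least 3000 genes per well, HOXA11 (ENSDARG00000007009) and hoxd11a in V2a cluster 4 turned to -1.21 and -1.51, where 6 and 18 of 15 and 81 wells were left. Counts of called Hox genes moved with the tool and filter, and they stand here without the share of all genes called under each alternative. Between the lines the count was 5, against 21 by DESeq2, 8 with no filter on low counts and 1 with at least 3000 genes, and leaving out a plate gave 0 to 11. Between MN-like and V2a-like wells it was 1, against 18 by DESeq2, 6 with no filter, 0 with at least 3000 genes and 2 in thinned wells, and leaving out a plate gave 0 to 25. For isl1a:GFP classes it was 0, against 26 by DESeq2, 4 with no filter, 1 with at least 3000 genes and 1 in thinned wells. For MN clusters it was 9, against 35 by DESeq2 and 35 with no filter, and for V2a clusters 25, against 55 by DESeq2, 50 with no filter and 6 with at least 3000 genes.

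The lines share plate numbers only as names (r = 0.10 between the lines and 0.05 between MN-like and V2a-like wells), and a replicate block gave 12 and 6 called genes. Without the block, the counts were 0 for classes, 6 for MN clusters and 23 for V2a clusters. The nhlh2 cluster kept 4 wells of plate 1 at 3000 genes and could not be fitted there. Leaving out a plate left no test in these last 3 comparisons. RLE scaling moved the median of all genes to 0.11, -0.21 and -0.25 in CSF-contacting-like, nhlh2 and serotonergic-like sums, against -0.04, -0.44 and -0.40 with TMM.

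The share of wells with group 13 reads was 19.9% in MN-like wells, against 25.5% at a minimum of 1 read, and in V2a-like wells 24.1%, against 31.3% at 1 read, 25.5% at 5, 20.7% at 25 and 25.5% without thinning. The share of V2a-like wells reaching group 12 or 13 was 41.0%, against 49.5% at 1 read, 42.1% at 5, 39.0% at 25, 42.6% without thinning and 39.9% with at least 3000 genes. For chx10:GFP wells the median r of neighbouring groups was 0.27, against 0.31 with a pseudocount of 10 CPM and 0.31 by Spearman's rho. Groups 10 to 13 held 41.1% of V2a-like Hox counts, against 38.2% as a mean over wells. The limit of 30% mitochondrial counts removed no well. Causes were not tested. With 2 pools a line, the precision is set by the pools and not by the depth.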
